A study of Mus musculus with 10 samples.

Results

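The genes described here are 9 markers of myelinating oligodendrocytes, Mbp, Mobp, Mog, Mag, Cnp, Mal, Opalin, Ermn and Myrf, chosen by name, and all 9 were found by Ensembl gene ID among the 47729 genes of a count table of mouse brain. RNA was sequenced from hypothalamus, hippocampus and prefrontal cortex of CF1 mice at postnatal day 56. In the low-protein (LP) groups the parents ate a low-protein diet while mating and the dams stayed on it until weaning. In the normal-protein (NP) groups the parents and dams ate a normal-protein diet over the same span. Parents of both groups ate the NP diet in the 5 days before mating, and pups of both groups were weaned at day 21 and then lived under NP conditions for 5 weeks, so no animal was on LP when its brain was taken.

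There was 1 library for each region, sex and diet. Hippocampus and prefrontal cortex had LP and NP libraries of females and of males, and hypothalamus had LP and NP libraries of males, which makes 10 libraries and 5 LP and NP pairs. The labels do not say whether a library holds 1 animal or a pool, or whether the regions came from the same animals. The p-values therefore measure the spread between these libraries, which may be technical, and take the libraries as independent. The tests used draw the spread of each gene toward that of other genes, so p-values and SEs do not rest on 1 gene alone.

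Oligodendrocytes wrap axons in layers of their own membrane, and the compacted sheath lets action potentials jump between the gaps left along the axon. Their precursors persist in the adult brain, pass through a newly formed stage and then switch on a common set of genes for sheath proteins, sheath lipids and the cytoskeleton that shapes the wraps. SOX10 and MYRF are the transcription factors best known for driving that set, and myelin formation in the mouse forebrain goes on through the weeks after birth and into adult life.

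Total counts ranged from 10256882 to 16265481 in the 9 complete libraries. The female NP hippocampus library had 7871010 counts and held no counts past a point on chromosome 4 in the order of the table, where 4480 of 4480 well-counted genes were at 0, so Mag and Mobp were treated as not measured in it. Levels are given as counts per 1000000 (CPM) of library sizes scaled by TMM, a method that lines up the bulk of genes between libraries. The region markers went with the labels: the summed level of 7 hypothalamic markers was 507 to 836 CPM in hypothalamus and at most 3.95 CPM elsewhere, and that of 7 neocortical markers was 794 to 838 CPM in prefrontal cortex and at most 478 CPM elsewhere. These and later sums cover the genes of a list that all libraries hold. In bulk tissue, fewer oligodendrocytes and less RNA per oligodendrocyte cannot be told apart.

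Mbp (ENSMUSG00000041607, chr18:82475146-82585637, plus strand of GRCm38) encodes myelin basic protein, which zips the inner faces of the membrane together. Mobp (ENSMUSG00000032517, chr9:120149707-120181484, plus strand) encodes another small basic protein of the compact sheath. Mog (ENSMUSG00000076439, chr17:37010743-37023398, minus strand) encodes a glycoprotein of the outermost surface of the sheath. Mag (ENSMUSG00000036634, chr7:30899176-30914873, minus strand) encodes the adhesion protein of the innermost wrap, which faces the axon. Mal (ENSMUSG00000027375, chr2:127633226-127656695, minus strand) encodes a proteolipid that carries cargo to lipid-rich membrane. Opalin (ENSMUSG00000050121, chr19:41061710-41077113, minus strand) encodes a membrane protein of the paranodes and inner loop of the sheath.

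Cnp (ENSMUSG00000006782, chr11:100574904-100591729, plus strand) encodes a cyclic nucleotide phosphodiesterase that keeps cytoplasmic channels open within the sheath. Ermn (ENSMUSG00000026830, chr2:58045113-58052864, minus strand) encodes ermin, a protein of the actin cytoskeleton of mature oligodendrocytes. Myrf (ENSMUSG00000036098, chr19:10208272-10240748, minus strand) encodes the transcription factor named above. All 9 are protein-coding, and values count reads over the whole gene. Cnp overlaps Dnajc7 on the opposite strand, which had 1143 to 2551 counts per library, and Mbp overlaps the pseudogene Rpl21-ps8 on the opposite strand, which had 75 to 213. The strand setting of the counting is not given in the sources used here, so reads in those overlaps could have been assigned to either gene.

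Promoters of 7 of the 9 genes were in the RefSeq table used (GRCm38.p6), which did not hold Mbp and Myrf. The 250 bases before the start site were searched on both strands for a SOX motif, ACAAAG or its complement CTTTGT, and for a MYRF motif, CTGGCAC or CTGGTAC with the complements GTGCCAG and GTACCAG. The SOX motif stood in the promoters of 4 of these 7 genes (Mobp, Mag, Cnp and Opalin), against 16.5% of the 32851 promoters in the table. The MYRF motif stood in those of 3 of them (Mog, Mag and Cnp), against 5.93% of all promoters. A gene counts here with a match at any of its start sites, while the percentages count each start site. By start site, 5 of 9 held the SOX motif and 4 of 9 the MYRF motif. Both counts take in overlapping windows of Mag, in which the same SOX and MYRF match is counted again. Neither was found in the window of Mal or Ermn. The sequences of Mobp, with 6 matches, Mag and Cnp, with a match to each motif, and Opalin, the gene called lower in LP over all pairs, are given 5′ to 3′ with the matches in capitals, which do not overlap each other.
Mobp promoter, chr9:120149492-120149741, plus strand: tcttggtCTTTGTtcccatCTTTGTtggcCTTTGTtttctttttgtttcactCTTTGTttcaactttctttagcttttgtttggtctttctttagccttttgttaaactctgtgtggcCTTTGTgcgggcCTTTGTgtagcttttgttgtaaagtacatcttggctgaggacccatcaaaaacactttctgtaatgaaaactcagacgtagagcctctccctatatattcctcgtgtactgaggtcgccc
Mag promoter, chr7:30914864-30915113, minus strand: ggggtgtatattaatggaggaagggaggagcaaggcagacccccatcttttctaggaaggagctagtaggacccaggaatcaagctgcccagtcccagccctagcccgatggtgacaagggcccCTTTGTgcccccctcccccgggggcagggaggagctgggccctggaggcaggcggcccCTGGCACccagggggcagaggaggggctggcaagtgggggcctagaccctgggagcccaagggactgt
Cnp promoter, chr11:100574689-100574938, plus strand: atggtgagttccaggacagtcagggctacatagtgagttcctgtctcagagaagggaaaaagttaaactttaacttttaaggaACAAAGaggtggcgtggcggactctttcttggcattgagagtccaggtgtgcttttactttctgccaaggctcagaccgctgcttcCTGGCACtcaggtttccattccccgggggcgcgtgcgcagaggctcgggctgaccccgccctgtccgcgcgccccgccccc
Opalin promoter, chr19:41077114-41077363, minus strand: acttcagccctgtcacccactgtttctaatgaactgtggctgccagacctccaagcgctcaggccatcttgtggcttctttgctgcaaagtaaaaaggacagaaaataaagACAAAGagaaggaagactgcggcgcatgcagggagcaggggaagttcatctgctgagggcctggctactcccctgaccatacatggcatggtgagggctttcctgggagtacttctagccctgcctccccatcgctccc

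All 6 matches in the Mobp window read CTTTGT, on its printed strand. No other of the 32851 promoters held 6 matches, and 1.74% held 2 or more. The table holds 3 start sites for Mag, of which 1 is shown, and the window of another held neither motif. In Mag the SOX match starts 126 bases and the MYRF match 68 bases before the start site, and in Cnp 167 and 81 bases before it. In Opalin the single SOX match starts 139 bases before the start site. A match describes the letters of the window and is not a binding site.

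The 9 genes differed widely in level, and their order was led by Mbp everywhere. Divided by exon length, the mean level in hippocampus was 327 CPM per kb for Mbp. It was 129 CPM per kb for Mobp and 127 CPM per kb each for Cnp and Mal, which did not differ beyond the spread between libraries (SD 9.07, 12.2 and 8.24). Mag (57.2 CPM per kb) and Mog (50.2) came next, and Myrf (11.6), Ermn (10.1) and Opalin (7.92) were the lowest. In prefrontal cortex the same per-length measure ran from 114 for Mbp to 2.25 for Ermn, which there lay below Opalin (2.76) by less than their SDs of 0.79 and 0.89. Mbp made up 54.5% to 59.3% of the summed CPM of the 9 genes in the 9 complete libraries.

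The 9 genes were highest in hippocampus and lowest in prefrontal cortex on average. In hypothalamus Mbp had 1635 CPM in the LP male library and 2192 CPM in the NP male library. In hippocampus it had 2758 CPM in the LP female and 2819 CPM in the LP male library, against 3062 CPM in the NP female and 2426 CPM in the NP male library. In prefrontal cortex it had 789 CPM in the LP female and 889 CPM in the LP male library, against 926 CPM in the NP female and 1244 CPM in the NP male library. On this scale the 3 regions did not overlap, with hippocampus highest and prefrontal cortex lowest. Within prefrontal cortex both LP libraries lay below both NP libraries and the NP male library stood above the other 3, while within hippocampus the diets overlapped.

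Ermn showed the widest regional range. It had 25.4 CPM in the LP and 33.3 CPM in the NP hypothalamus library. It had 35.1 CPM in LP female and 39.4 CPM in LP male hippocampus, against 36.0 CPM in NP female and 35.8 CPM in NP male hippocampus. In prefrontal cortex it had 6.31 CPM (61 counts) in the LP female and 5.37 CPM (70 counts) in the LP male library, against 9.33 CPM (97 counts) in the NP female and 11.6 CPM (141 counts) in the NP male library. Hypothalamus thus came close to hippocampus for this gene, and all 4 prefrontal libraries were far below both.

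Opalin, the least abundant per length in hippocampus, overlapped between hypothalamus and prefrontal cortex. It had 9.19 CPM in the LP and 14.5 CPM in the NP hypothalamus library. Hippocampus had 18.5 CPM in the LP female and 23.2 CPM in the LP male library, against 25.5 CPM in the NP female and 26.0 CPM in the NP male library. Prefrontal cortex had 5.79 CPM (56 counts) in the LP female and 6.44 CPM (84 counts) in the LP male library, against 8.75 CPM (91 counts) in the NP female and 11.6 CPM (140 counts) in the NP male library. In every region and sex the LP library was the lower of its pair, and in hippocampus, too, both LP libraries lay below both NP libraries. The share of all genes that did so in hippocampus was not counted, and the hippocampal difference of Opalin did not pass the test given below.

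Mobp had 504 CPM in the LP and 767 CPM in the NP hypothalamus library. It had 929 CPM in LP female and 906 CPM in LP male hippocampus, against 812 CPM in NP male hippocampus. It had 184 CPM in LP female and 207 CPM in LP male prefrontal cortex, against 222 CPM in NP female and 351 CPM in NP male prefrontal cortex. The LP library was the lower one in hypothalamus and in both prefrontal pairs and the higher one in male hippocampus.

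Mal had 158 CPM in the LP and 202 CPM in the NP hypothalamus library. It had 349 CPM in LP female and 340.1 CPM in LP male hippocampus, against 387 CPM in NP female and 338 CPM in NP male hippocampus. It had 87.5 CPM in LP female and 97.5 CPM in LP male prefrontal cortex, against 104 CPM in NP female and 164 CPM in NP male prefrontal cortex. For Mal the male hippocampus libraries of the diets were nearly equal. Mog ranged from 79.4 to 101 CPM in hippocampus, 52.0 to 64.1 in hypothalamus and 21.5 to 40.7 in prefrontal cortex. Mag ranged from 223 to 241, 136 to 196 and 67.4 to 119.8 CPM in the same order, Cnp from 423 to 527, 304 to 398 and 167 to 259, and Myrf from 91.1 to 111, 42.0 to 53.3 and 24.9 to 40.4. On this scale none of these 4 genes overlapped between regions. The share of all genes without such overlap was not counted, here or for Mbp above.

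**Figure D1:**
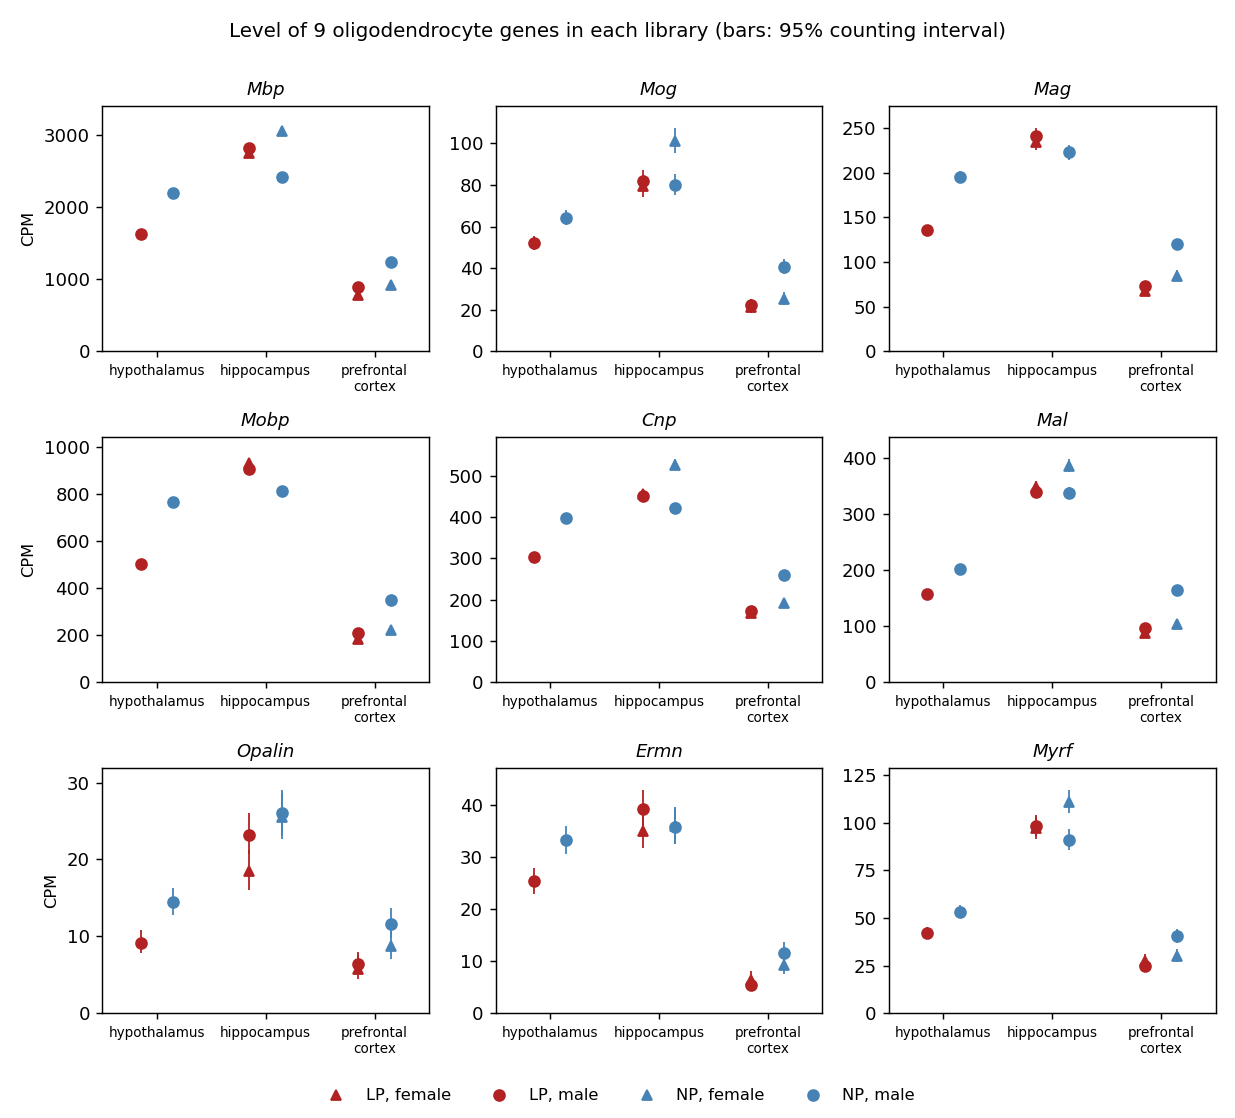
Level in CPM (vertical axes, from 0, 1 panel per gene) of the 9 genes in each library of hypothalamus, hippocampus and prefrontal cortex, with LP in red left of NP in blue, triangles for females and circles for males, and bars for the exact 95% counting interval. Mean levels are highest in hippocampus and lowest in prefrontal cortex in every panel, as for Mbp at 2426 to 3062 CPM in hippocampus and 789 to 1244 CPM in prefrontal cortex. Mag and Mobp have no point for NP female hippocampus.

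In hippocampus over prefrontal cortex, 9 of 9 genes were higher by edgeR's quasi-likelihood test with Benjamini-Hochberg adjustment over 17550 genes, where 27.3% of all genes were called higher and 26.3% lower. The median log2 fold change of the 9 genes was 1.65, against -0.0074 over all genes, with the smallest for Cnp (1.25 ± 0.10 SE) and the largest for Ermn (2.19 ± 0.15). Their adjusted p-values lay between 5.49e-09 for Mobp and 8.03e-08 for Cnp. In hypothalamus over prefrontal cortex 9 of 9 were higher as well, where 33.3% of all genes were, with a median of 0.90 and a range of 0.45 ± 0.14 for Opalin (adjusted p = 0.0145) to 1.82 ± 0.18 for Ermn (adjusted p = 5.78e-07). The call of Opalin was lost without either prefrontal pair or without the female hippocampus pair (adjusted p = 0.0543 to 0.0587).

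In hypothalamus over hippocampus 9 of 9 were lower, where 29.8% of all genes were, with a median log2 fold change of -0.60 against 0.01 over all genes. Opalin (-1.09 ± 0.13), Myrf (-1.06 ± 0.13) and Mal (-1.05 ± 0.15) reached 0.471, 0.481 and 0.482 of their hippocampal level in that order. Mobp, Mag, Mog, Mbp and Cnp lay between -0.61 and -0.43, and Ermn was the closest to hippocampus (-0.37 ± 0.15, adjusted p = 0.0459). The call of Ermn was lost with DESeq2, with edgeR's earlier method, without a low-count filter and without 3 of the pairs in turn (adjusted p = 0.0594 to 0.333), and that of Mobp with DESeq2 (adjusted p = 0.0708). The hypothalamus libraries were all male and differed from the others in composition. Their TMM sizes were 1.16 and 1.17 times their sizes without TMM, against 0.94 to 0.97 times in the other libraries. Sizes without TMM are the counts summed over the genes measured in all libraries, put on the scale of full totals. On sizes without TMM the NP hypothalamus library reached the range of hippocampus for 5 of the genes. It had 2569 CPM for Mbp against 2343 to 2977 CPM in hippocampus, and 899 CPM for Mobp against 785 to 898 CPM. It had 229 CPM for Mag against 215 to 233 CPM, 466 CPM for Cnp against 408 to 512 CPM, and 39.0 CPM for Ermn against 33.9 to 37.9 CPM.

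The comparison of LP with NP asks what a low-protein diet around birth leaves in the adult brain. In 4 of the 5 pairs every measured gene of the 9 was lower in LP, and the fifth, male hippocampus, went mostly the other way. In male prefrontal cortex 9 of 9 log2 ratios were negative, where 49.9% of 17547 genes were, with a median of -0.75. They ran from -1.10 for Ermn (exact 95% counting interval -1.55 to -0.69) to -0.48 for Mbp (-0.52 to -0.45). In female prefrontal cortex 9 of 9 were negative, where 51.1% of genes were, with a median of -0.25, from -0.58 for Opalin (-1.10 to -0.10) to -0.14 for Myrf (-0.38 to 0.10). The intervals of Myrf and Mog reached above 0 in that pair.

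In male hypothalamus 9 of 9 log2 ratios were negative, where 49.6% of genes were, with a median of -0.39, from -0.65 for Opalin (-0.95 to -0.36) to -0.30 for Mog (-0.43 to -0.17). In that pair hypothalamic markers summed to 507 CPM in LP against 836 CPM in NP, and pituitary markers to 22.1 CPM in LP against 102 CPM in NP. The endothelial markers had a median log2 ratio of 0.56 there, and the part of these markers in the result was not tested.

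In female hippocampus 7 of 7 measured genes were negative, where 49.6% of 11433 genes were, with a median of -0.19. Opalin was again the lowest (-0.46, interval -0.73 to -0.20), and the interval of Ermn held 0 (-0.04, -0.24 to 0.17). In male hippocampus 8 of 9 were positive, where 51.4% of genes were, with a median of 0.11. Mbp had 0.22 (0.19 to 0.24), Mobp 0.16 (0.12 to 0.20), Mag 0.11 (0.04 to 0.19) and Cnp 0.09 (0.04 to 0.15), while Opalin had -0.16 (-0.40 to 0.07). Each pair is 1 library against 1, so these intervals cover counting error only and no test stands behind them.

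**Figure D2:**
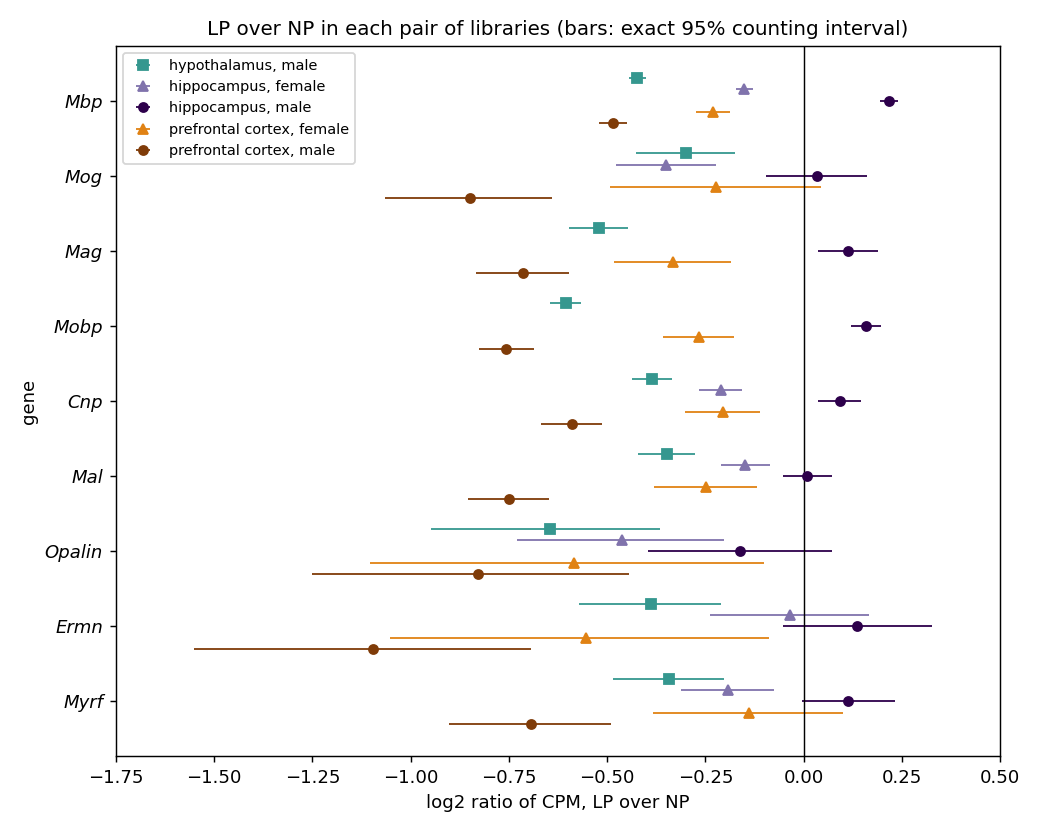
Log2 ratio of CPM, LP over NP (horizontal axis), of each of the 9 genes (vertical axis) in each of the 5 pairs, with bars for the exact 95% counting interval. Points of male prefrontal cortex lie leftmost, with a median of -0.75, and those of male hippocampus rightmost, with a median of 0.11. Mag and Mobp have no point for female hippocampus.

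Fitted over all pairs with region and sex as a block, all 9 genes had negative log2 fold changes, against 50.2% of the 17547 genes tested, and their median was -0.29 against -5e-04 over all genes. Of the 9, 1 fell, where 0.439% of all genes were called lower. Opalin fell by 0.49 ± 0.10 on the log2 scale (edgeR's quasi-likelihood test, adjusted p = 0.0317), to 0.714 of its NP level, and was lower in 5 of 5 pairs. The adhesion gene Mag had -0.35 ± 0.10 (adjusted p = 0.103) and Mobp -0.37 ± 0.11 (adjusted p = 0.119), each fitted without the incomplete library, on 9 libraries and 4 pairs. Mog had -0.31 ± 0.09 and Mal -0.29 ± 0.08, and the other 4 lay between -0.21 for Mbp and -0.26 for Cnp, with adjusted p-values of 0.110 to 0.40 for these 6.

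The call of Opalin was lost without the male or the female prefrontal pair, the female hippocampus pair or the hypothalamus pair (adjusted p = 0.0601 to 0.117). It held without the male hippocampus pair. Without that pair, in a fit that called 0.213% of all genes lower, 5 genes were called lower, Opalin and 4 more: Mbp (-0.32 ± 0.05), Mag (-0.53 ± 0.08), Mobp (-0.55 ± 0.08) and Cnp (-0.35 ± 0.06), with adjusted p-values of 0.0116 to 0.0381.

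Within prefrontal cortex 4 of the 7 genes tested fell, where 0.534% of 11433 genes were called lower. They were Ermn (-0.87 ± 0.17, adjusted p = 0.0247), Mal (-0.52 ± 0.09, adjusted p = 0.0121), Cnp (-0.40 ± 0.08, adjusted p = 0.0302) and Mbp (-0.36 ± 0.07, adjusted p = 0.0251). Opalin (-0.74 ± 0.17, adjusted p = 0.0518), Mog (-0.58 ± 0.14, adjusted p = 0.0553) and Myrf (-0.44 ± 0.13, adjusted p = 0.103) did not pass. Mag and Mobp were not tested, since the fit without the incomplete library leaves 1 residual degree of freedom, under the minimum of 2 set for the reported fits. Both LP libraries lay below both NP libraries for 9 of 9 genes, as they did for 20.8% of 17547 genes. The median of the 7 was -0.52, against -0.0047 over all genes tested.

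The prefrontal fit rests on 2 pairs and 2 residual degrees of freedom, and the male pair had the more negative log2 ratios for 9 of 9 genes. Its SEs lean on spread shared with other genes and can be narrower than the distance between the pairs. For Mal the male pair had -0.75 and the female pair -0.25, at an SE of 0.09. Fits within a region that leave out a hippocampal or prefrontal pair have 1 residual degree of freedom, under the minimum, and a region left with 1 pair takes its spread from other libraries, so these are descriptions. The female pair alone gave -0.56 for Ermn, -0.24 for Mal, -0.20 for Cnp and -0.22 for Mbp, with 0 of the 7 called. DESeq2 and the fit without a low-count filter called none of the 7, at adjusted p-values of 0.207 and above. Without region and sex as a block, Mal, Cnp and Mbp lost their call (adjusted p = 0.102 to 0.172). That fit called 0.769% of all genes lower, against 0.534% with the block. In it Opalin was called lower (adjusted p = 0.0448), and Mag (-0.54 ± 0.08) and Mobp (-0.53 ± 0.09) could be tested and were called lower. For Mag and Mobp it holds 1 NP hippocampus library, so their values are descriptions.

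Within hippocampus 0 of the 7 genes tested passed, where 0.271% of 11433 genes were called in either direction, and DESeq2 called 0 of the 7 as well. Opalin was the one with an unadjusted p under 0.05 in edgeR's test (-0.30 ± 0.11, adjusted p = 0.734). Mog had -0.16 ± 0.10, and the other 5 lay between -0.07 for Mal and 0.05 for Ermn. The median of the 7 was -0.06.

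**Figure D3:**
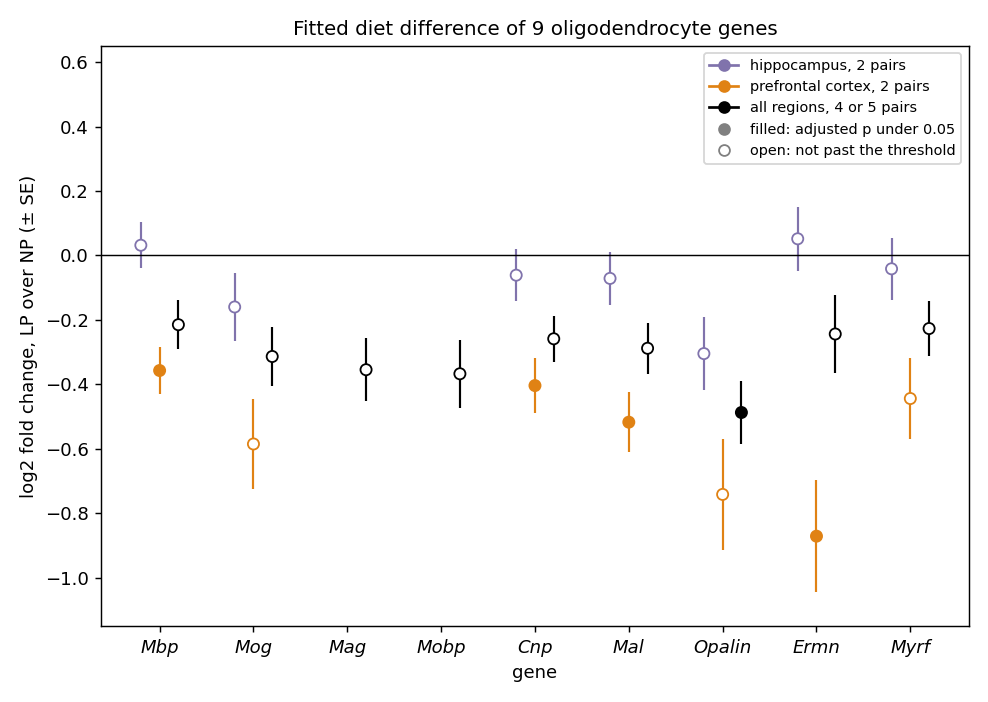
Fitted log2 fold change of LP over NP (vertical axis, ± SE) of each of the 9 genes (horizontal axis) within hippocampus, within prefrontal cortex and over all pairs, with filled points for an adjusted p under 0.05. The filled points are Mbp, Cnp, Mal and Ermn in prefrontal cortex and Opalin over all pairs, and Mag and Mobp have points over all pairs only.

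The LP over NP difference was more positive in hippocampus than in prefrontal cortex for 7 of 7 genes tested, by 0.34 ± 0.12 for Cnp to 0.92 ± 0.20 for Ermn on the log2 scale (median 0.43, against 0.0061 over all genes). With adjustment over 11433 genes 0 of 7 passed by edgeR's test (adjusted p = 0.516 to 0.931), and 0 of all genes did (0%), while 6 of the 7 had an unadjusted p under 0.05 and DESeq2 called 0. Without the female hippocampus pair, a fit with 1 residual degree of freedom and a single hippocampal pair that called 0.171% of all genes higher, 7 of 9 were called, all but Opalin and Myrf. The difference between sexes in the diet effect was -0.12 to 0.15 for the 7 genes and 0 passed, where 0.173% of 10973 genes did, with 0 of the 7 at an unadjusted p under 0.05 and 0 called by DESeq2. That contrast turned on single pairs, in fits with 1 residual degree of freedom: without the male hippocampus pair female minus male was 0.30 ± 0.07 for Mbp (adjusted p = 0.00315), and without the male prefrontal pair it was -0.40 ± 0.07 (adjusted p = 9.91e-05).

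Females and males were compared over hippocampus and prefrontal cortex within region and diet. Of the 9 genes 0 passed, where 0.611% of 16703 genes did, and 8 of 9 values were negative, as were 46.5% over all genes. Mobp (-0.25 ± 0.07, adjusted p = 0.133), Mag (-0.20 ± 0.06, adjusted p = 0.209) and Opalin (-0.21 ± 0.09, adjusted p = 0.521) had an unadjusted p under 0.05, and DESeq2 called 0 of the 9. Without either hippocampal pair, 1 hippocampus library is left per diet, so the sexes are compared in prefrontal cortex alone. With 1 residual degree of freedom, 4 of 7 were called lower in females without the male hippocampus pair (0.612% of all genes). Without the female hippocampus pair 6 of 9 were (0.556%). Both fits compare the same prefrontal libraries and are not separate results. In hippocampus the NP female library stood above the NP male library for 6 of the 7 genes measured in both, all but Opalin. In prefrontal cortex the NP female library lay below the NP male library for all 9. Each of these is 1 library against 1, the 9 genes are correlated, and the share over all genes was not counted.

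Other genes of the lineage were read from 6 lists of sheath, lipid, regulatory and stage genes. Fitted over all pairs, 0 of their 69 genes passed edgeR's test, 28 had an unadjusted p under 0.05 and DESeq2 called 0. Within prefrontal cortex, where 0.534% of all genes were called lower, 3 of 9 tested sheath genes fell. Among them were the tight junction gene Cldn11 (-0.52 ± 0.11, adjusted p = 0.0319) and the tetraspanin gene Tspan2 (-0.53 ± 0.10, adjusted p = 0.0175). Of 7 lipid enzyme genes 1 fell, Cers2, which makes the very long ceramides of myelin (-0.38 ± 0.08, adjusted p = 0.0384). Of the 26 genes tested in the other 4 lists 0 passed, with 8 at an unadjusted p under 0.05, and DESeq2 called 0 in all 6 lists. Within hippocampus 0 of the 42 genes tested in the 6 lists passed by edgeR or DESeq2, with 4 at an unadjusted p under 0.05.

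Sox10, which encodes the transcription factor of the lineage, had -0.16 ± 0.07 over all pairs (adjusted p = 0.321) and -0.22 ± 0.10 within prefrontal cortex (adjusted p = 0.384).

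Median values over all pairs were lowest in the sheath list and nearest 0 in the early stages. The sheath list had a median log2 fold change of -0.21 with 14 of 15 genes negative, the lipid enzymes -0.17 with 6 of 8, the other genes of mature oligodendrocytes -0.15 with 16 of 20 and the transcription factors -0.11 with 9 of 10. Newly formed oligodendrocyte genes had -0.03 with 5 of 8 negative and precursor genes 0.02 with 3 of 8. Among the genes with the highest level in their list, Olig1 of the transcription factors had -0.19 ± 0.05 (adjusted p = 0.116) and Plekhb1 of the mature list -0.22 ± 0.07 (adjusted p = 0.140). Fyn, a kinase gene of newly formed cells, had 0.03 ± 0.04 (adjusted p = 0.786), and Pdgfra, the receptor gene that marks precursors, 0.02 ± 0.09 (adjusted p = 0.966). The difference between lists was not tested.

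Between regions, precursor genes again had a median nearer 0 than the sheath genes. In hippocampus over prefrontal cortex, where 27.3% of all genes were called higher and 26.3% lower, 13 of 15 sheath genes, 7 of 8 lipid enzymes and 16 of 20 other mature genes were higher, and Cdk18 of the mature list was lower (-1.20). Of 8 precursor genes 1 was higher and 2 lower, Susd5 by the most (-2.20), with a list median of -0.10. Pdgfra differed by -0.05 ± 0.09 (adjusted p = 0.685).

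Markers of other cells were read beside these results. In male prefrontal cortex, where the 9 genes had their lowest ratios, the summed level of 7 astrocyte markers was 4343 CPM in LP against 5244 CPM in NP, and that of 4 endothelial markers was 94.6 CPM in LP against 123 CPM in NP. In female prefrontal cortex the sums were 4727 CPM in LP against 4774 CPM in NP for astrocytes and 97.7 CPM in LP against 92.4 CPM in NP for endothelium. Neuron markers summed to 5860 CPM in LP and 6011 CPM in NP male prefrontal cortex. Red blood cell markers were lower in LP in all 5 pairs, with medians of -0.79 in male and -0.73 in female prefrontal cortex. By edgeR's test 5 of 5 were called lower over all pairs, where 0.439% of all genes were. Of those tested, 2 of 2 were called lower within prefrontal cortex (0.534% of all genes) and 2 of 2 within hippocampus (0.0787%). Their part in the result was not tested.

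Markers of the thalamus, which lies near the hippocampus, differed between the hippocampal pairs in the direction of the 9 genes. Their sum over 7 genes was 160.5 CPM in LP against 133 CPM in NP males and 176 CPM in LP against 250.3 CPM in NP females. The median log2 ratio of the list was 0.38 in the male pair, with 10 of 11 genes positive, and -0.62 in the female pair, with 7 of 7 negative. In hypothalamus, where the 9 genes were lower in LP, the thalamic median was 0.40. Choroid plexus markers summed to 217 CPM in LP against 112 CPM in NP male hippocampus, and to 194 CPM in LP against 47.3 CPM in NP female hippocampus, so they were higher in LP in both. Pituitary markers summed to 1.51 CPM in LP against 547 CPM in NP male hippocampus. Their part in the hippocampal values was not tested.

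Schwann cell markers, which stand for peripheral myelin, summed to 0.899 to 4.45 CPM per library.

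**Figure D4:**
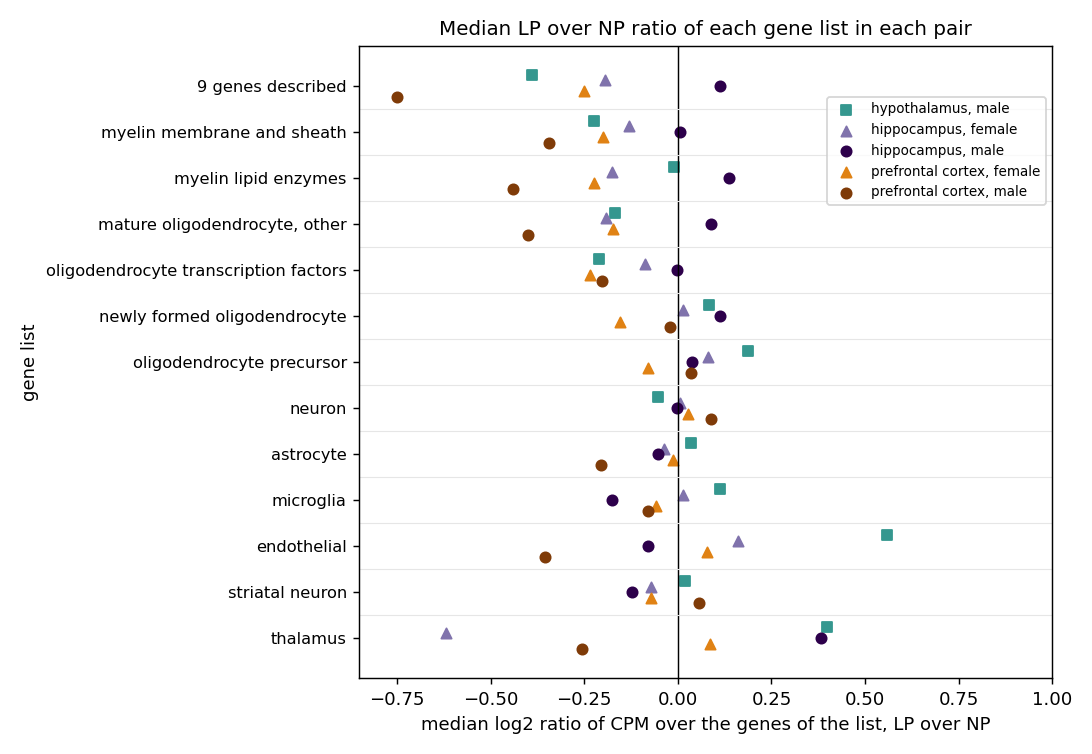
Median log2 ratio of CPM, LP over NP (horizontal axis), over the genes of each list (vertical axis) in each of the 5 pairs. The 9 genes range from -0.75 in male prefrontal cortex to 0.11 in male hippocampus, neuron markers range from -0.05 to 0.09 and thalamic markers split the hippocampal pairs at 0.38 in males and -0.62 in females.

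The levels of the 9 genes were correlated across libraries. Over the 9 complete libraries the Pearson correlation of log2 CPM between members was 0.888 to 0.998 over 36 pairs of genes (median 0.970), which includes the differences between regions. With values centred within region it was 0.789 to 0.994 (median 0.935). The points share their library, its depth and its composition, and these values are descriptions.

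Among 10708 other genes with a mean of 10 CPM or more in the complete libraries, the 10 most like the mean of the 9 genes were Gjc3 (r = 0.995), Gpr37, Anln, Cldn11, Bcas1, Fa2h, Plekhh1, Tspan2, Evi2a and 1700047M11Rik (r = 0.985). Centred within region, the 10 most like included S1pr5 (r = 0.974), Plekhb1, Tmem88b, Hepacam, 1700047M11Rik, Ap4e1, Zfp74 and Bcas1 (r = 0.956). Of the 50 most like genes 15 were in the 6 lists on levels and 11 with centred values, out of 56 list genes compared.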

How the data were processed

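Libraries were made with a TruSeq kit from 1 µg of total RNA, per the labels. Raw counts, 1 row per Ensembl gene, were deposited by the authors as 1 table, and the submitters' processing notes name CASAVA, FastQC 0.10.1, STAR 2.5.0a and mm10. No source used here names the program that counted reads, its strand setting or its gene models. Of 47729 genes, 47310 matched GENCODE M21.

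Counts were tested with edgeR 4.0.16 (quasi-likelihood, R 4.3.3), TMM sizes over the 28131 genes measured in all libraries, and a minimum of 10 counts in 2 libraries. The 19598 genes not measured in the female NP hippocampus library were fitted without it where 2 residual degrees of freedom were left. Diets were paired by region and sex. P-values were adjusted by Benjamini-Hochberg over all genes of a comparison, and 0.05 was the threshold. Pair ratios used a prior count of 2. Intervals are 95% and exact, and cover counting error only. Alternatives were other size factors, no filter, edgeR's earlier method, DESeq2 1.42.0, no block, another prior count, sizes without TMM, and each pair left out. With a pair left out, 1 residual degree of freedom was allowed for genes measured in all libraries of the fit.

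The 9 genes and the lists were chosen with earlier results of these data known. Other genes are named where called in a list, highest in their list, or most like the 9 genes, and Sox10 by choice. Some genes that this rule names are not reported here.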

Additional observations from a re-analysis of the deposited data

Results flagged for a closer look

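The LP over NP log2 ratios of Mag and Mobp pointed in opposite directions in male hippocampus and in prefrontal cortex. The single hippocampal pair that holds them, the male pair, was positive for both, and both prefrontal pairs were negative. This was not particular to Mag and Mobp, since 8 of the 9 genes were positive in male hippocampus. In female hippocampus, where Mag and Mobp are not measured as a pair, 7 of 7 measured genes were negative. The hippocampal value minus the mean of the prefrontal values was 0.64 for Mag and 0.67 for Mobp. The difference was not tested in the design used for the other genes, because the fit without the incomplete library leaves 1 residual degree of freedom, under the minimum of 2. Without region and sex as a block it was 0.73 for Mag and 0.84 for Mobp. That fit holds the female LP hippocampus library without its NP partner and uses a sex term shared between regions, so it is a description. Its hippocampal LP over NP value was 0.19 for Mag and 0.30 for Mobp, against 0.11 and 0.16 in the male pair. The male hippocampus pair also differed in pituitary, choroid plexus and thalamic markers, whose part in this was not tested.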

How the results depend on the processing

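Over all pairs, 1 of the 9 genes was called lower, where 0.439% of all genes were. With 1 pair left out 0 to 5 were, where 0.189% to 0.65% of all genes were. With the female NP hippocampus library left out for all genes 0 were (Opalin, adjusted p = 0.0756), where 0.314% of all genes were. Within prefrontal cortex 4 were called lower, where 0.534% of all genes were, against 0 without a low-count filter (0.0339%) and 0 with DESeq2 (0.035%). Without the female hippocampus pair 9 were, in a fit that called 2.56% of all genes lower. Calls were lost without the male prefrontal pair. For hippocampus minus prefrontal cortex 0 were called higher, where 0% of all genes were, against 2 with no replicate block, where 0.0285% were. The count changed with 1 pair left out as well. For female minus male diet differences, 0 were called in either direction, where 0.173% of all genes were, and calls appeared with 1 pair left out. For sex, 0 were called lower, where 0.281% of all genes were, against 0 to 6 with 1 pair left out, where 0.113% to 0.612% were. The female minus male diet difference of Mbp was -0.05 and turned to 0.30 without the male hippocampus pair, while it was -0.40 without the male prefrontal pair. Fits of diet within a region, of diet differences and of sex have 1 residual degree of freedom when a hippocampal or prefrontal pair is left out, under the minimum of 2 used elsewhere, and Mag and Mobp enter them only without the female hippocampus pair, so their calls and lost calls are no check of stability. The 2 higher calls of hippocampus minus prefrontal cortex without the block were Mag and Mobp, whose fit holds 1 NP hippocampus library, so they are no check either. The causes of these changes were not tested. The 3 region comparisons kept 7 to 9 of 9 calls under every alternative fit run. No region test was run on sizes without TMM, on which the levels of hypothalamus and hippocampus overlapped for some of the genes.

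Without the replicate block of region and sex, 4 genes were again called lower in prefrontal cortex, where 0.769% of all genes were. These were Opalin, Ermn, Mag and Mobp, with Mag and Mobp from a fit that holds 1 NP hippocampus library. No call over all pairs was made or lost. In the whole table, prefrontal cortex had 152 calls, against 21 without a filter, 13 with DESeq2 and 293 without the block. Over all pairs the count was 243, against 110 with DESeq2, and within hippocampus 31, against 5 without a filter and 11 with DESeq2. On sizes without TMM, hypothalamic levels were higher (Mbp 1903 CPM in LP and 2569 CPM in NP, which overlaps with hippocampus). The lowest count of a member was 56 (Opalin), and each diet has 1 library per region and sex, which limits every within-region test.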
